A study of Mus musculus with 8 samples.

Results

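The genes described here are 10 Krüppel-like factors, namely Klf9 with Klf2, Klf3, Klf4, Klf5, Klf6, Klf7, Klf10, Klf13 and Klf15, chosen by gene symbol from a table of 23767 genes. All 10 were in the table, with 19 of its 49139 transcripts, and the transcript with the highest average level stood for its gene. RNA sequencing was done on 4 testis samples labelled Dio3KO and 4 wild-type testis samples, all from mice on a 129/SVJ background at postnatal day 5. The Dio3 enzyme, a deiodinase, inactivates thyroid hormones, and the study's title concerns genes that thyroid hormone regulates in the newborn testis. The labels used here describe neither the altered part of Dio3 nor the litters of the mice, and do not tell if testes were pooled.

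Krüppel-like factors are transcription factors that bind GC-rich and CACCC sequences in promoters through zinc fingers at their C-terminal end, a feature they share with the Sp factors. Their N-terminal parts differ: Klf9, Klf10 and Klf13 can recruit the Sin3a corepressor, Klf3 recruits Ctbp corepressors, and Klf2, Klf4, Klf5, Klf6 and Klf7 act mostly as activators. Klf9 is a direct target of thyroid hormone receptors in mouse brain and in tadpoles of the frog Xenopus, and it is also induced by glucocorticoids.

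Levels are the authors' group means in RPKM, a read count corrected for transcript length and for the size of the library. Levels of different genes can be set side by side only roughly, because RPKM also depends on which transcript stands for the gene. The 5 transcripts of Klf3, for example, ran from 2.27 to 11.2 RPKM in Dio3KO-labelled testes. The table gives a coefficient of variation (CV, the SD divided by the mean) for each group and no value for a single sample. Whether the individual samples of the groups overlapped therefore cannot be seen. The depth of each library is unknown. Genes tested were the 15225 whose mean reached 1 RPKM in at least 1 of the groups. "Rose" and "fell" are used only where the authors' deposited table has an adjusted p below 0.05. Ratios are log2 of Dio3KO over WT means, each with 0.5 RPKM added, with an SE computed from the deposited CVs. They understate the change of low genes. Across all genes tested the median log2 ratio was -0.05.

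Dio3 itself was not lower in the group labelled as its knockout: its mean was 2.95 RPKM in Dio3KO-labelled testes and 0.52 RPKM in WT testes (adjusted p = 0.0408, the authors' deposited table). The altered allele is not described, so this level does not check the labels, and each direction below rests on the label Dio3KO. The labels give the tissue as testis while the extraction text speaks of hypothalami. The 12 hypothalamic and neural markers summed to 5.12 RPKM in Dio3KO-labelled and 8.02 RPKM in WT samples, with none at 0, whereas the 9 measured Sertoli cell markers summed to 1941 and 1507 RPKM.

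Klf9 rose the most of the 10 members. It averaged 34.5 RPKM (CV 0.05) in Dio3KO-labelled testes and 8.17 RPKM (CV 0.19) in WT testes, a 4.22-fold ratio of the means. The spread of 1 SD around the mean ran from 32.8 to 36.2 RPKM in Dio3KO-labelled testes and from 6.62 to 9.72 RPKM in WT testes, well apart. The log2 ratio was 2.01 ± 0.13 (SE), and the authors' deposited table gave an adjusted p of 0.0022, its lowest value. This p was shared by 32 of the genes tested, 0.21% of them, and 2 of these had a higher ratio than Klf9. Among all genes tested, 32 had a higher log2 ratio than Klf9. In whole testes, a higher level per cell and more cells that express a gene cannot be told apart.

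Klf9 (ENSMUSG00000033863.2) is annotated at chr19:23141226-23168134, plus strand, in GENCODE M21 (GRCm38, the assembly of mm10). The annotation gives it up to 2 exons, and 0 of its exonic bases are shared with another gene. None of the 4766 stretches of 50 bases in its annotated transcripts was found in transcripts of another gene. The microRNA gene Mir1192 lies within Klf9 on the same strand, outside its exons, and was at 0.46 RPKM (CV 0.91) in Dio3KO-labelled testes and 0.06 RPKM (CV 2.00) in WT testes (adjusted p = 0.2402, the authors' deposited table).

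The 250 bases upstream of the annotated start are shown for Klf9, for Klf13, which also recruits Sin3a, and for Klf4, whose level did not pass the test, to show where the boxes bound by the family's own proteins are found. The sequences are those of RefSeq for GRCm38.p6, 5′ to 3′ on the strand of the gene, and capitals mark GGGCGG and CACCC on either strand. The Klf9 window is chr19:23140976-23141225 on the plus strand, the Klf13 window chr7:63938916-63939165 on the minus strand and the Klf4 window chr4:55532476-55532725 on the minus strand.
Klf9: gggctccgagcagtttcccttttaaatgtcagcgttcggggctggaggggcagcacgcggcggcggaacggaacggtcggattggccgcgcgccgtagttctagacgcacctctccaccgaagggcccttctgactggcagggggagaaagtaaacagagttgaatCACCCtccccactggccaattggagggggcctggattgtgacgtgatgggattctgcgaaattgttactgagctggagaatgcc
Klf13: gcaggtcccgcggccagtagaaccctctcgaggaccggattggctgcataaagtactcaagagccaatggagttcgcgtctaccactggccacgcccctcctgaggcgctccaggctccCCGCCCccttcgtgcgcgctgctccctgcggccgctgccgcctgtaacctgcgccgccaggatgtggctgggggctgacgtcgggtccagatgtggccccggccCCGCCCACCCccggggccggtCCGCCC
Klf4: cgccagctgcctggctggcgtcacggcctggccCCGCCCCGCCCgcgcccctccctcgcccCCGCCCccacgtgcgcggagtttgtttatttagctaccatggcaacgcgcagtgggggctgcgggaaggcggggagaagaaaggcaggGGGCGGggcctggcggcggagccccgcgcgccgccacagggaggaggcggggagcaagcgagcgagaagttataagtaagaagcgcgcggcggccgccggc

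Promoter windows were found for 8 of the 10 members, each taken from 250 bases before to 50 after the start. GGGCGG was searched on both strands and was in 7 of these 8 windows, against 35.7% of the 32851 windows of all genes. Klf9 was the member without it, while Klf3 had 6 matches, Klf4 had 4, Klf13 had 3, Klf2 had 2, and Klf6, Klf7 and Klf15 had 1 each. CACCC, also searched on both strands, was in 6 of the 8 windows, against 57.5% of all windows, with 5 matches in Klf3, 3 in Klf7, 1 each in Klf2, Klf9, Klf13 and Klf15, and 0 in Klf4 and Klf6. In the Klf3, Klf4 and Klf13 windows some matches of the motifs overlap or adjoin each other. A thyroid hormone response element of the DR4 form, with a second AGGTCA 4 bases after the first on either strand, was in none of the 8 windows and in 0.015% of all windows, and the single AGGTCA was in none of the 8 and in 16.3% of all. The absence of these letters from a window says nothing of binding elsewhere. GC content was 63.3% for Klf9, close to the 63.0% of Klf6 and above the 58.3% of Klf7. It was higher at 69.3% for Klf2, 72.0% for Klf13, 73.3% for Klf15, 74.3% for Klf4 and 76.7% for Klf3. All 8 windows were above the median of 52.7% over all windows. The shares of all windows given above were not matched for GC content.

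In WT testes Klf9 was among the middle members by level. Klf10 was highest at 23.6 RPKM, followed by Klf6 at 22.2, Klf13 at 19.6 and Klf4 at 15.5 RPKM. Klf3, Klf9 and Klf2 followed within a narrow range at 8.21, 8.17 and 8.08 RPKM, and their spreads of 1 SD overlapped. Klf7 (6.42 RPKM) and Klf15 (4.36 RPKM), whose spreads also overlapped, and Klf5 (0.61 RPKM) were lower.

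In Dio3KO-labelled testes Klf9 was the highest of the 10. Its 1 SD range, which began at 32.8 RPKM, narrowly missed that of Klf6, the next gene at 29.3 RPKM, which ended at 32.5 RPKM. Klf6 and Klf10 (26.5 RPKM) overlapped, and every other pair of neighbours in the order was apart by more than 1 SD on each side. The remaining order was unchanged from WT testes except that Klf6 and Klf10, which overlapped there too, changed places. The 10 means summed to 162 RPKM in Dio3KO-labelled and 117 RPKM in WT testes. Klf9 made up 21.3% of that sum in Dio3KO-labelled testes and 6.99% in WT testes. Of the difference of 44.9 RPKM between the sums, Klf9 accounted for 26.3 RPKM and the other 9 members for 18.6 RPKM.

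**Figure D1:**
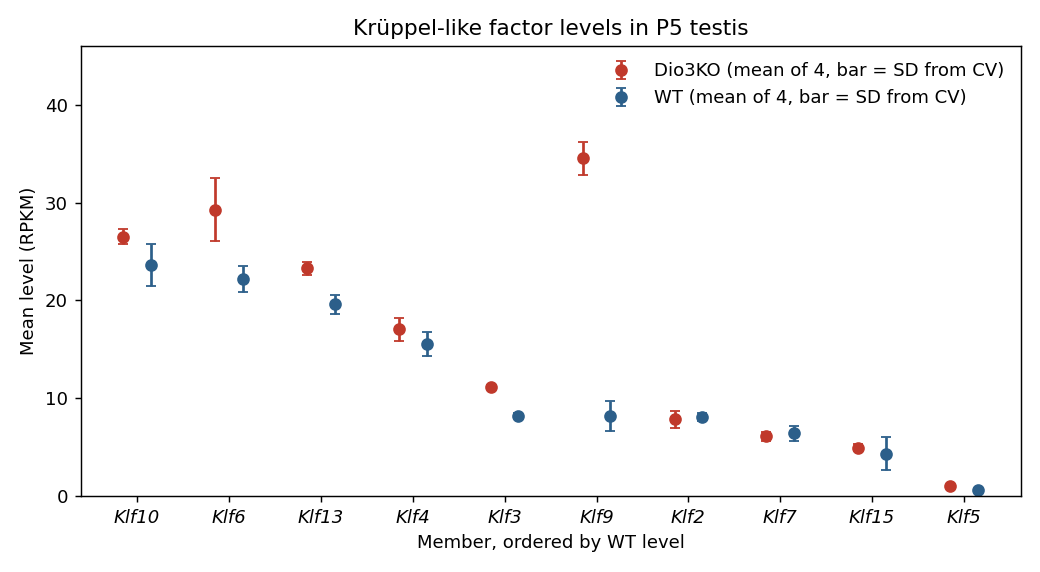
Group means in RPKM of the 10 members, ordered by their WT level from left to right, with Dio3KO-labelled testes in red to the left of WT testes in blue. Bars are the deposited CV times the mean (1 SD over 4 samples). Klf9 is at 34.5 RPKM in Dio3KO-labelled testes and at 8.17 RPKM in WT testes, while the other members differ by at most 7.09 RPKM.

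Of the 10 members, 4 rose and 0 fell, where 14% of all genes tested rose and 15.9% fell (29.9% in either direction). Besides Klf9 these were Klf3, Klf13 and Klf5. Klf5 entered the test only through its Dio3KO mean. Of the 9 members with both means at 1 RPKM or more, 3 rose, beside 1943 of 14600 such genes. The median log2 ratio of the members was 0.20. By direction alone, 8 of the 10 log2 ratios were above 0, against 41.8% of all genes tested, and with both groups scaled to the same sum of RPKM these were 10 of 10 and 58.3%. The members were chosen with earlier results of these data known, so these counts describe the 10 genes and cannot test the family. Of the 4 other Krüppel-like factors tested, 0 rose and 0 fell.

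Among the repressors, Klf3, which represses fat cell differentiation through Ctbp corepressors, rose in a narrow spread. It averaged 11.2 RPKM (CV 0.02) in Dio3KO-labelled testes and 8.21 RPKM (CV 0.03) in WT testes. The log2 ratio was 0.42 ± 0.02 (SE), and the authors' deposited table gave an adjusted p of 0.0022, the same p as that of Klf9 at a far smaller change. Klf3 and Gm20033, a gene on the opposite strand, share 404 exonic bases, and the labels do not tell if reads were counted by strand.

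Klf13, an activator of a chemokine gene in T lymphocytes and a close relative of Klf9 in sequence, rose by less. Its mean was 23.3 RPKM (CV 0.03) in Dio3KO-labelled testes and 19.6 RPKM (CV 0.05) in WT testes, a log2 ratio of 0.24 ± 0.04 (SE), and the authors' deposited table gave an adjusted p of 0.0101. The 1 SD ranges, 22.6 to 24.0 RPKM in Dio3KO-labelled and 18.6 to 20.6 RPKM in WT testes, did not meet. Klf10, known as a gene induced early by TGF-beta, averaged 26.5 RPKM (CV 0.03) in Dio3KO-labelled and 23.6 RPKM (CV 0.09) in WT testes. It did not pass (adjusted p = 0.1334 in the authors' deposited table), and its log2 ratio was 0.16 ± 0.07 (SE).

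Among the activators, Klf6, which responds to tissue injury, had the second largest difference in level, but it did not pass. It averaged 29.3 RPKM (CV 0.11) in Dio3KO-labelled and 22.2 RPKM (CV 0.06) in WT testes, a log2 ratio of 0.39 ± 0.09 (SE), and the authors' deposited table gave an adjusted p of 0.0551. As for Klf13, its 1 SD ranges did not meet, at 26.1 to 32.5 RPKM in Dio3KO-labelled and 20.9 to 23.5 RPKM in WT testes. A moderated limma test, which takes the variances from the deposited CVs and pools them across genes on the log2 scale, did call Klf6, with an adjusted p of 0.00184. That test called 5 members higher and 0 lower, where it called 18.6% of all genes tested higher and 23.2% lower. At an unadjusted limma p below 0.05, 6 members were higher and 0 lower, where 22% of all genes tested were higher and 28.9% lower. The limma adjusted p was 1.39e-06 for Klf9, 6.61e-05 for Klf3, 0.00272 for Klf13 and 0.00332 for Klf5, while Klf10 was at 0.0562.

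Klf5, which drives proliferation of intestinal epithelium, was the lowest member in both groups. It rose to 1.02 RPKM (CV 0.12) in Dio3KO-labelled testes, against 0.61 RPKM (CV 0.01) in WT testes (adjusted p = 0.03, the authors' deposited table). Its log2 ratio of 0.45 ± 0.06 (SE) depended on the constant added, being 0.66 with 0.1 RPKM and 0.33 with 1 RPKM. The WT CV of Klf5 was low for its level: in WT testes Sp6 had a CV of 0.11 at 0.50 RPKM and Cd14 one of 0.21 at 0.62 RPKM. The SE takes that low CV as given.

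Klf4 and Klf2 are known from endothelial cells, where blood flow induces both, and Klf4 is also known from Sertoli cells and spermatids of the mouse testis. Klf4 averaged 17.1 RPKM (CV 0.07) in Dio3KO-labelled and 15.5 RPKM (CV 0.08) in WT testes (adjusted p = 0.2166, the authors' deposited table). Klf2 averaged 7.85 RPKM (CV 0.11) in Dio3KO-labelled and 8.08 RPKM (CV 0.05) in WT testes (adjusted p = 0.6133, the authors' deposited table). Neither passed, and the spreads of the groups overlapped for both genes. Nos3 and Thbd, endothelial genes known to be induced through Klf2 and Klf4, did not pass either: Nos3 had means of 1.73 RPKM in Dio3KO-labelled and 1.46 RPKM in WT testes, and Thbd had 72.4 and 67.6 RPKM.

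Klf7, which promotes axon growth in neurons, averaged 6.11 RPKM (CV 0.07) in Dio3KO-labelled and 6.42 RPKM (CV 0.12) in WT testes (adjusted p = 0.5289, the authors' deposited table). Of its stretches of 50 bases, 38.2% also occur, on the opposite strand, in the non-coding gene Gm26649, so its level is uncertain if reads were not assigned by strand. Klf15, a glucocorticoid-induced regulator of amino acid and glucose metabolism, averaged 4.96 RPKM (CV 0.07) in Dio3KO-labelled and 4.36 RPKM (CV 0.39) in WT testes. Its WT spread, 2.66 to 6.06 RPKM within 1 SD, took in the 1 SD range of the Dio3KO-labelled testes, and the adjusted p was 0.5397 in the authors' deposited table. The SE of its log2 ratio, 0.17 ± 0.26, was the widest among the members.

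**Figure D2:**
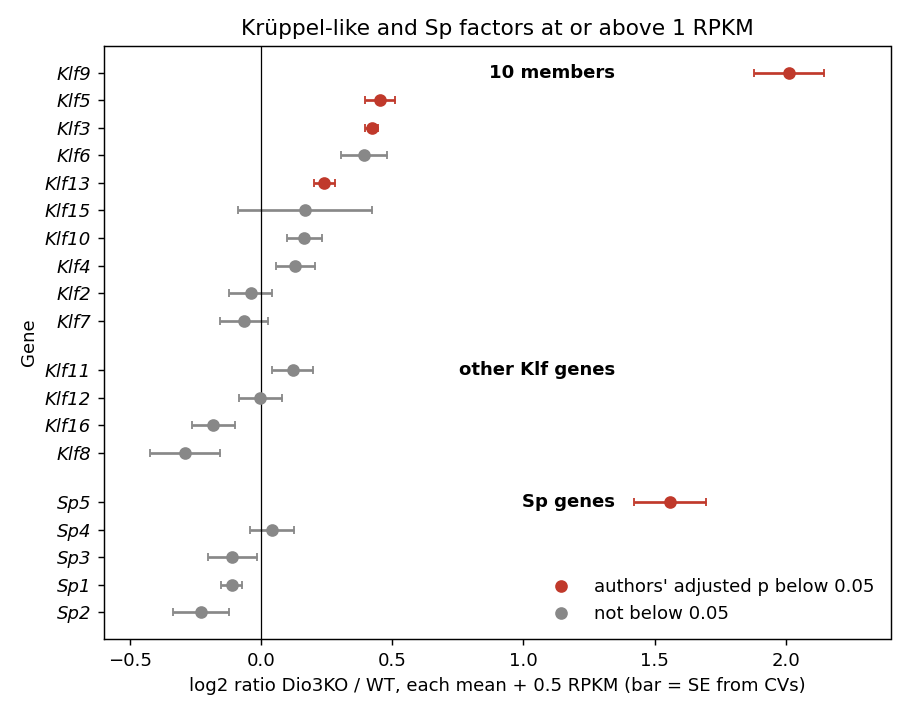
Log2 ratio of Dio3KO over WT means, each with 0.5 RPKM added, for members, other Klf genes and Sp genes that reached a mean of 1 RPKM in at least 1 group. Bars are the SE computed from the CVs and red marks an authors' adjusted p below 0.05. Klf9 at 2.01 and Sp5 at 1.56 lie apart from the rest, which are between -0.29 and 0.45.

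Transcripts of a gene share exons, so their RPKM are not independent. Klf9, Klf2, Klf4, Klf6 and Klf10 had 1 transcript each in the table. All 5 transcripts of Klf3 rose, with adjusted p values from 0.0022 to 0.0211 in the authors' deposited table. Their log2 ratios were 0.42 and 0.45 for the best expressed transcripts (11.2 and 10.8 RPKM in Dio3KO-labelled testes, 8.21 and 7.80 RPKM in WT testes). The least expressed ones had lower ratios, 0.23 at 3.34 RPKM in Dio3KO-labelled and 2.77 RPKM in WT testes, and 0.26 at 2.27 and 1.81 RPKM. Whether the ratios differ between transcripts was not tested.

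Both transcripts of Klf13 rose with the same p (adjusted p = 0.0101, the authors' deposited table), and the lower of them stood at 96.7% of the level of the higher. Of the Klf5 transcripts, the lower one, at 0.50 RPKM in Dio3KO-labelled and 0.31 RPKM in WT testes, did not pass (adjusted p = 0.0679, the authors' deposited table). None of the 3 Klf7 transcripts passed (log2 ratios of -0.08 to -0.07), and neither did those of Klf15 (0.17 each).

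**Figure D3:**
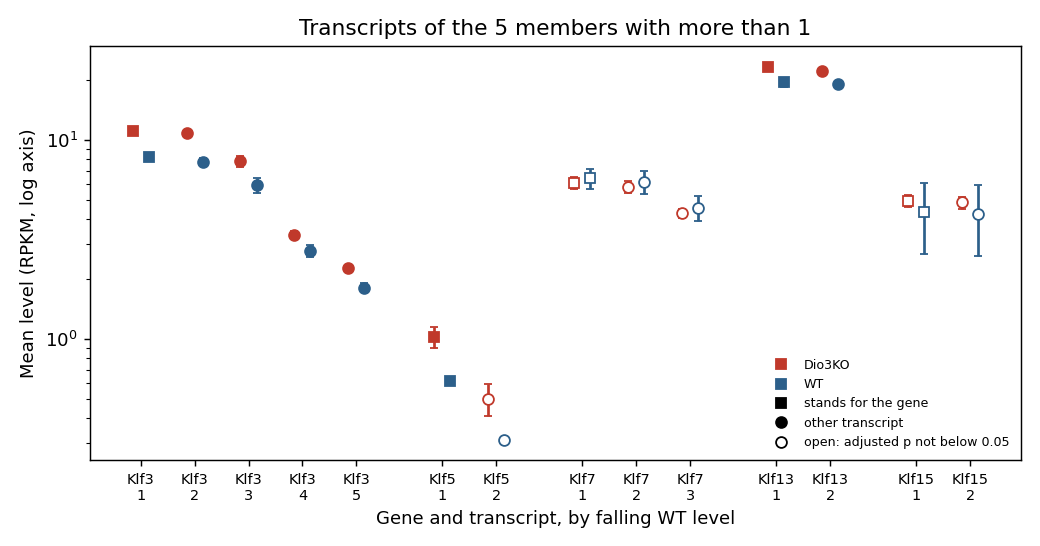
Group means on a log axis in RPKM for each transcript of the members with more than 1, with Dio3KO-labelled testes in red to the left of WT testes in blue and bars of 1 SD from the deposited CV. Squares mark the transcript that stands for its gene and open symbols an authors' adjusted p of 0.05 or more. All 5 transcripts of Klf3 and both of Klf13 are higher in Dio3KO-labelled testes, and the WT bars of Klf15 are the widest.

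Of 7 other Krüppel-like factors, 4 were tested. Of these, 0 rose and 0 fell by the authors' deposited table, which called 29.9% of all genes tested, or by the moderated limma test, which called 41.8%. At an unadjusted limma p below 0.05, 0 of the 4 were higher and 2 lower, beside 22% and 28.9% of all genes tested. Klf11, a relative of Klf10, averaged 15.5 RPKM in Dio3KO-labelled and 14.2 RPKM in WT testes. Klf16 was at 11.5 and 13.2 RPKM, Klf8 at 5.47 and 6.80 RPKM and Klf12 at 4.61 and 4.62 RPKM. Klf1, Klf14 and Klf17 were below 1 RPKM in both groups. The median log2 ratio of the tested genes was -0.09.

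Of the 9 Sp factors, 5 were tested and Sp5 alone passed in either direction, where 29.9% of all genes tested were called. Sp5, a target of Wnt signalling, rose to 3.33 RPKM (CV 0.07) in Dio3KO-labelled testes, against 0.80 RPKM (CV 0.29) in WT testes, a log2 ratio of 1.56 ± 0.14 (SE), and the authors' deposited table gave an adjusted p of 0.0023. Like Klf5 it reached 1 RPKM only in Dio3KO-labelled testes. The widely expressed Sp1 and Sp3 were higher in level and did not pass, at 27.5 and 49.4 RPKM in Dio3KO-labelled testes and 29.8 and 53.4 RPKM in WT testes. Sp6, below 1 RPKM in both groups and so not among the genes tested, was lower, at 0.37 RPKM (CV 0.10) in Dio3KO-labelled and 0.50 RPKM (CV 0.11) in WT testes (adjusted p = 0.0402, the authors' deposited table).

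Of 11 measured corepressors and coactivators, 2 rose, 1 fell and 8 did not pass, where 29.9% of all genes tested were called. Kat2b, a histone acetyltransferase, rose to 31.2 RPKM in Dio3KO-labelled testes, against 19.1 RPKM in WT testes (adjusted p = 0.0057, the authors' deposited table). Wwp1, a ubiquitin ligase that acts on Klf5 in human cells, rose to 14.1 RPKM in Dio3KO-labelled testes, against 11.3 RPKM in WT testes. Ctbp1, a corepressor used by Klf3, fell to 64.9 RPKM in Dio3KO-labelled testes, against 73.8 RPKM in WT testes. The other Ctbp gene of the list, Ctbp2, was at 23.3 RPKM in Dio3KO-labelled and 25.5 RPKM in WT testes and did not pass. Sin3a, the corepressor of Klf9, was at 29.7 RPKM in Dio3KO-labelled and 31.2 RPKM in WT testes and did not pass. The histone deacetylase Hdac2, at 88.5 RPKM in Dio3KO-labelled and 90.8 RPKM in WT testes, did not pass. Sin3b, a relative of Sin3a, did not pass in any of its transcripts, whose Dio3KO-labelled means ran from 103 to 561 RPKM and whose WT means ran from 94.6 to 509 RPKM.

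Hormone receptors that bind near Klf9 in other tissues were measured as well, in a list with Hr. Of its 5 genes tested, 3 rose, 1 fell and 1 did not pass, where 14% of all genes tested rose and 15.9% fell. The gene that did not pass, Nr3c2, was at 1.06 RPKM in Dio3KO-labelled and 1.04 RPKM in WT testes. Nr3c1, the glucocorticoid receptor, rose to 25.8 RPKM (CV 0.08) in Dio3KO-labelled testes, against 17.3 RPKM (CV 0.04) in WT testes (adjusted p = 0.0161, the authors' deposited table). The thyroid hormone receptor Thra fell to 107 RPKM in Dio3KO-labelled testes, against 133 RPKM in WT testes, and Thrb rose to 3.03 RPKM, against 1.80 RPKM in WT testes. Hr, a corepressor induced by thyroid hormone in brain, rose to 7.66 RPKM in Dio3KO-labelled testes, against 1.14 RPKM in WT testes, a log2 ratio of 2.31 ± 0.07 (SE). Of 10 genes known to be induced by glucocorticoids, 2 rose and 0 fell, where 14% of all genes tested rose and 15.9% fell. Sgk1, a kinase, rose to 14.1 RPKM in Dio3KO-labelled testes, against 8.72 RPKM in WT testes, and the metallothionein Mt1 rose to 62.9 RPKM, against 38.5 RPKM in WT testes. Fkbp5 (45.8 RPKM in Dio3KO-labelled and 47.7 RPKM in WT testes) and Tsc22d3 (66.4 and 65.8 RPKM) did not pass. The list's median log2 ratio was 0.10.

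Klf2, Klf4, Klf6 and Klf10 are also known as genes induced early by stimuli, so genes of that kind were set beside them. Of 10 tested immediate early genes, 4 rose and 1 fell, beside 14% and 15.9% of all genes tested. Their median log2 ratio was 0.24. Atf3, a stress-induced factor, rose to 8.58 RPKM in Dio3KO-labelled testes, against 2.78 RPKM in WT testes, and Egr2, a factor known from nerve myelination, fell to 2.11 RPKM, against 3.88 RPKM in WT testes. Btg2, an antiproliferative gene, rose to 22.2 RPKM in Dio3KO-labelled testes, against 17.5 RPKM in WT testes, and the AP-1 subunit Jun rose to 26.9 RPKM, against 22.1 RPKM in WT testes. Egr1 (4.43 RPKM in Dio3KO-labelled and 5.60 RPKM in WT testes) and Ier2 (12.2 and 11.9 RPKM) did not pass.

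Markers of other cells moved in the same comparison, in which 14% of all genes tested rose and 15.9% fell. Of 12 macrophage markers, 9 rose and 0 fell. Among these 9, Cd14 reached 1 RPKM only in Dio3KO-labelled testes, at 1.53 RPKM, against 0.62 RPKM in WT testes. The 12 markers summed to 197 RPKM in Dio3KO-labelled and 99.3 RPKM in WT testes. Csf1r, the receptor for macrophage growth factors, rose to 15.9 RPKM in Dio3KO-labelled testes, against 7.85 RPKM in WT testes. Lyz2, a lysozyme gene, was at 41.2 RPKM in Dio3KO-labelled and 24.2 RPKM in WT testes and did not pass. Of 12 endothelial markers, 6 rose and 0 fell, with sums of 137 RPKM in Dio3KO-labelled and 110 RPKM in WT testes. Tek, the angiopoietin receptor, rose to 4.25 RPKM in Dio3KO-labelled testes, against 2.66 RPKM in WT testes, while the cadherin Cdh5 (24.4 RPKM in Dio3KO-labelled and 23.5 RPKM in WT testes) did not pass. All 8 proliferation genes fell, with sums of 353 RPKM in Dio3KO-labelled and 584 RPKM in WT testes. Of 9 Sertoli cell markers 3 rose and 5 fell, and of 7 Leydig cell markers 2 rose and 1 fell. Of 6 peritubular myoid markers 2 rose and 1 fell. Of 7 germ cell markers 0 passed by the authors' deposited table. The moderated limma test called 1 germ cell marker higher and 2 lower, beside 18.6% and 23.2% of all genes tested. No marker of these lists was listed at 0 in either group. Their part in the differences of the Krüppel-like factors was not tested.

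**Figure D4:**
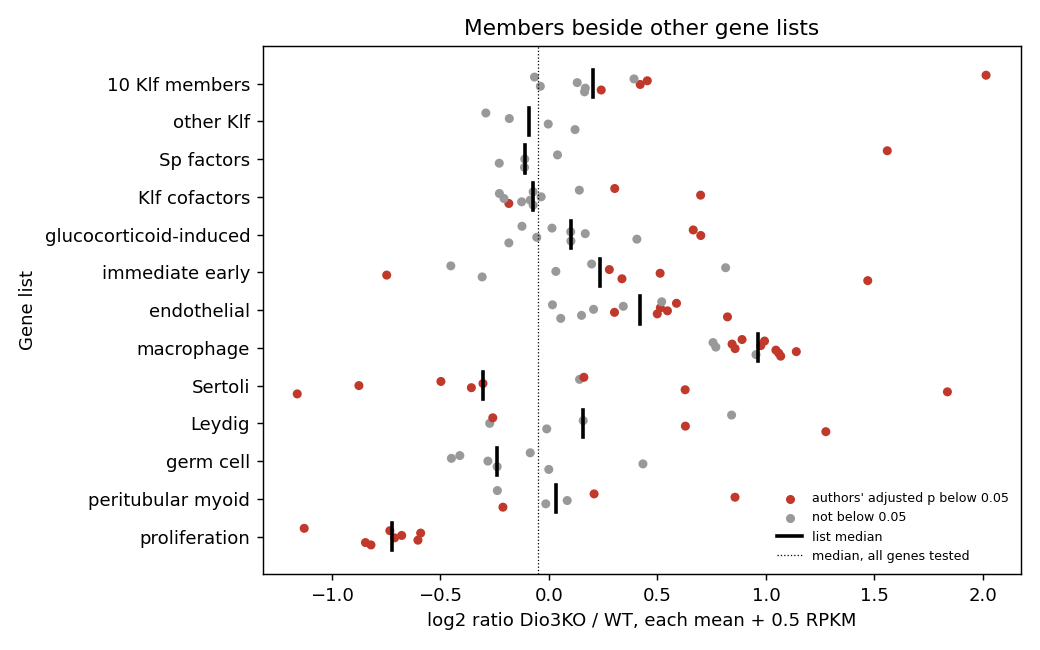
Log2 ratio of Dio3KO over WT means, each with 0.5 RPKM added, for every tested gene of 13 lists, with the list median as a black bar and the median of all genes tested, -0.05, as a dotted line. Red marks an authors' adjusted p below 0.05. The members have a median of 0.20 with Klf9 far to the right, the macrophage markers one of 0.97 and the proliferation genes one of -0.72.

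By level in the 2 group means, the genes most like Klf9 were Tspan17, Rassf2, Garnl3, Esyt3 and Ntn4, with distances to Klf9 of 0.31 to 0.58 on the log2(RPKM + 0.5) scale. They were the nearest among protein-coding genes that reached a mean of 5 RPKM in at least 1 group, and the likeness rests on 2 values per gene. Tspan17, a tetraspanin, averaged 39.2 RPKM (CV 0.15) in Dio3KO-labelled and 9.80 RPKM (CV 0.26) in WT testes. Rassf2, a Ras-association domain protein, averaged 35.2 RPKM (CV 0.05) in Dio3KO-labelled and 11.2 RPKM (CV 0.09) in WT testes. Ntn4, which encodes a netrin of basement membranes, averaged 25.2 RPKM (CV 0.13) in Dio3KO-labelled and 6.23 RPKM (CV 0.29) in WT testes.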

How the data were processed

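In all, 8 testis samples were measured by RNA sequencing, and 1 table was deposited. FastQC, Novoalign 2.08 and mm10 are named, without role or order, in the submitters' processing notes. No source used here names the counting tool, annotation, strand or the authors' test. The authors deposited the mean RPKM of each group, the CV of each group, a ratio of SD to mean, and an adjusted p-value, per the file headers. Columns of values per sample left unused numbered 0, and the depth per sample is unknown. Each of 49139 transcripts stood 3 times among 147417 lines, and repeats were dropped. Symbols were brought up to date with RefSeq synonyms.

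The members and all lists were chosen with earlier results of these data known. All members were named. Among genes reaching 1 RPKM in a group, at least the 2 with the lowest p and the 2 with the highest level were named from each other list. The cell type markers and proliferation genes did not follow that rule. Cell type markers are named as examples, chosen after their values were seen. The main calls are the authors' adjusted p-values below 0.05. The log2 ratios used a pseudocount of 0.5 RPKM. As an alternative, limma 3.58.1 (R 4.3.3) shrank variances taken from the CVs (squeezeVar, trended and robust, 6 residual degrees of freedom, a CV of 0 set to 0.0025), adjusted by Benjamini-Hochberg over 15225 genes and tested on simulated data. Nothing says that the samples were separate litters, so p-values measure the spread between these samples. Coordinates are from GENCODE M21, by symbol.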

Additional observations from a re-analysis of the deposited data

How the results depend on the processing

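The authors' deposited p-values called 4 members (Klf9, Klf3, Klf5 and Klf13) and 29.87% of the 15225 genes tested. An unequal-variance test recomputed from means and CVs called the same 4 members and 30.48% of the 15225 genes. Without a filter on low values, and with the lowest p among a gene's transcripts, the same 4 members were called. Without the filter 20.93% of all 23767 genes were called, and with the lowest p 33.04% of 15225 genes. Both settings reuse the deposited p-values, so they could not lose a member already called. The moderated limma test added Klf6 and called 41.83% of the 15225 genes tested. With at least 5 RPKM required, 8 members were left and 3 were called, because Klf5 and Klf15 were no longer tested. Of the 11349 genes that reached 5 RPKM, 32.35% were called. With a threshold of 0.01, 2 members (Klf9 and Klf3) and 9.24% of all genes tested were called. The log2 ratio of Klf9 ran from 1.95 to 2.11 over the other pseudocounts and scalings. Its sum over transcripts could not differ, because Klf9 has 1 transcript. With that sum included, the ratios of Klf3 and Klf13 ran from 0.40 to 0.52 and from 0.24 to 0.34. Scaling both groups to the same sum of RPKM raised ratios by 0.10 and turned the signs of Klf2 (-0.04 to 0.05 over all settings) and Klf7 (-0.08 to 0.03), neither of which passed the test. No paired analysis was possible because the table holds group means only, and for the same reason no replicate could be left out. Depth is unknown, so no counting error is given.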
